A study of Mus musculus with 6 samples.

Results

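The matrix metalloproteinases (MMPs), their tissue inhibitors (TIMPs) and the ADAM and ADAMTS proteases were examined in mouse embryonic fibroblasts exposed to hydrogen peroxide (H2O2). A gene was included when its whole name on the array was Mmp, Timp, Adam or Adamts followed by a number, with or without a letter. This gave 68 genes measured by 114 probes, of 29742 gene names and 41174 non-control probes on the array, and they comprised 21 MMPs, 4 TIMPs, 28 ADAMs and 15 ADAMTS. Where several probes measured a gene, the probe with the highest mean intensity stood for it, and other probes are given where they disagreed in direction with a call, or with a value that the text turns on.

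The cells were primary fibroblasts grown from minced embryos of day 15 by the labels, either wild type (WT) or homozygous for a deletion that keeps the reading frame and removes part of the helicase domain of Wrn, the mouse homologue of the Werner syndrome gene (Wrn Δhel/Δhel, labelled WS). WT and WS cells received 0.5 mM H2O2 for 1 h and were kept for 24 h in fresh medium before RNA extraction. There were 6 arrays of 2 colours, with 2 biological replicates per comparison. On 2 arrays treated WT cells (Cy5) were hybridised against untreated WT cells (Cy3), on 2 arrays treated WS cells (Cy5) against untreated WS cells (Cy3), and on 2 further arrays, called the direct arrays here, untreated WT and WS cells of other cultures (replicates 3 and 4) were hybridised together. No array had its dyes exchanged, so that any dye preference of a probe enters each of its ratios.

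MMPs are secreted or membrane-bound zinc proteases that cut collagens and other matrix proteins, and TIMPs bind and block them. Most ADAMs are membrane proteins, some of which release growth factors, cytokines and receptors from the cell surface, whereas ADAMTS proteases are secreted and cut proteoglycans or procollagens. Fibroblasts are a main source of MMPs and TIMPs in connective tissue.

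A spot was taken as above background in a comparison when the scanner software had marked it well above background in at least 1 channel on both arrays. By this measure 61 of the 68 genes were above background in at least 1 comparison, and 29 were well above background in all 12 channels. Mmp15 and Mmp20 were so in no channel. The Cy5 channels were dimmer, with 41.5 to 69.2% of spots well above background against 75.8 to 90.0% in Cy3. Spots marked as outliers were left out, and they were most frequent on the array of WT replicate 2 (22.6% of spots), which removed the value of 16 of the 68 genes there. On the other arrays between 0 and 3 of the genes were lost this way. The fibroblast markers were all above background (11 of 11), whereas Cdh1, the only gene of the epithelial list on the array, was so in 1 of 12 channels. The muscle genes Myod1, Acta1 and Myog were well above background in all 12 channels, Myh3 in 11 and Ckm in 6. Of the cartilage and bone genes, Col2a1 and Sp7 were so in all 12 channels. Matn1 was so in 8, Col9a1 in 5, Bglap1 in 4 and Ibsp in 2. The macrophage genes were so in 6 to 12 channels, the mast cell genes in 2 to 12 and the endothelial genes in 2 to 8. Mcpt8 of the mast cell list had a mean normalized log2 intensity of 9.93 in untreated WT and 5.37 in untreated WS (Cy3, treatment arrays). Of the other mast cell genes Kit was also lower in WS, and Cpa3, Fcer1a and Ms4a2 were higher. Cultures from minced embryos can hold several cell types, and fewer cells of a type and less RNA per cell cannot be told apart.

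The genes of the MMP cluster on chromosome 9 are shown first, because one of them, Mmp3, was among the few genes that differed between the genotypes within the treatment arrays. In the RefSeq annotation of GRCm38.p6 the 10 neighbouring protein-coding genes from Mmp13 to Mmp7 are all MMPs, and 8 of them were among the genes studied here. A promoter sequence was at hand for 39 of the 68 genes, in 44 windows, and 250 bases before the annotated start were searched on both strands for TGANTCA (the AP-1 motif), GGGCGG (the SP1 motif) and TATAAA (the TATA box), none of which contains another. The letters TGANTCA occurred in 10 of the 44 windows (22.7%) against 6.75% of all 32851 windows, and 7 of these 10 belonged to the 8 cluster genes. GGGCGG occurred in 38.6% of the windows against 32.7% of all, and TATAAA in 22.7% against 12.4%. A match in a window is a description and not a binding site. The last 100 bases before an annotated start of 4 cluster genes are printed 5′ to 3′ from RefSeq, with matches in capitals. They were chosen to show the element that these genes have in common. Mmp12 has another window, which holds no TGANTCA and is not printed.
Mmp13 (chr9:7272414-7272513, plus strand): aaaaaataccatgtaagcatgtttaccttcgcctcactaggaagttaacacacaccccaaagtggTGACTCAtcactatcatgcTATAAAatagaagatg
Mmp12 (chr9:7347274-7347373, plus strand): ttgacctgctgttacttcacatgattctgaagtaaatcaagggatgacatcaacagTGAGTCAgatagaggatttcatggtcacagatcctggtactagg
Mmp3 (chr9:7445722-7445821, plus strand): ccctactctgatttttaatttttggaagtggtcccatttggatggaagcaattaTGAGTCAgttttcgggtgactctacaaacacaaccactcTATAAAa
Mmp10 (chr9:7502242-7502341, plus strand): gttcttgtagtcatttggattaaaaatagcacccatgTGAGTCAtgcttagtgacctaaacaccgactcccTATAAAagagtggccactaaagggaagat

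The 250 bases before the start of the other genes with a difference between genotypes within the treatment arrays, and of Timp1, the inhibitor with the highest difference on the direct arrays, are printed in the same way. They hold GGGCGG or its complement and no TGANTCA.
Mmp11 (chr10:75932503-75932752, minus strand): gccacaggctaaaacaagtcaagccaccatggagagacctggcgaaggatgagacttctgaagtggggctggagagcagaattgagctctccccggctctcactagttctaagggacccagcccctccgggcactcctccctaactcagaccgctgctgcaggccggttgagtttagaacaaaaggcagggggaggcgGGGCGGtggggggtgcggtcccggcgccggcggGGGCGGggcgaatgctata
Mmp28 (chr11:83463041-83463290, minus strand): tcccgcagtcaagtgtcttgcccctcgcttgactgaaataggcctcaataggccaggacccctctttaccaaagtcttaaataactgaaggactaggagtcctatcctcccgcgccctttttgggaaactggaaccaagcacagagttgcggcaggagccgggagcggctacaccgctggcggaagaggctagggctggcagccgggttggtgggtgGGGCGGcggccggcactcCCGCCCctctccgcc
Timp1 (chrX:20869916-20870165, plus strand): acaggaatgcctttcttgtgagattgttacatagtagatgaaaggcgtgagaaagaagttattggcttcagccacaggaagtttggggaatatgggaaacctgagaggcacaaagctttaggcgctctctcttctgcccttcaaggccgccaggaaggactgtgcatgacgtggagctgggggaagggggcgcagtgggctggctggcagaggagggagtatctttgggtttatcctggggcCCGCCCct

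The first question was how untreated WS cells differ from untreated WT cells in these genes. The sample labels place WT in Cy5 on the direct arrays, but the study's own table of results gives the Cy5 over Cy3 ratio of these arrays as WS over WT. The second direction was used for all values below and is therefore opposite to the labels. It is also the direction of the difference between the Cy3 channels of the treatment arrays, where the genotype follows from the titles. On the direct arrays 20 of 68 genes passed the threshold (limma, adjusted p under 0.05 over all probes), 11 higher and 9 lower in WS, which is 29.4% against 19.2% of all gene names tested. Without direct replicate 3 31 genes passed, and without replicate 4 25. In the fit of all arrays, 10.7% of all gene names passed as higher and 8.47% as lower. Their shares without a direct array are not given here. The median log2 difference of the 68 genes was -0.01, and that of all gene names 0.03. Of the 6 genes on the fibroblast list that passed, all were higher in WS (Col1a1, Col3a1, Pdgfra, Pdgfrb, Dcn and Lum). The median of the 11 markers was 1.01. Within Cy3 of the treatment arrays, from other cultures, 0 of 9 fibroblast markers with a value passed, and their median was 0.16. The part of the marker difference in the results for the proteases was not tested.

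The highest difference was that of Mmp11 (stromelysin-3), a protease that cuts few matrix proteins directly and is known from tissue remodelling. Its log2(WS/WT) was 3.46 and 3.71 on the direct arrays, a mean of 3.58 ± 0.17 (SE, n = 2) or 12-fold with an adjusted p of 0.00054. Within the Cy3 channels of the treatment arrays the normalized log2 intensity was 7.18 and 7.21 in WT and 9.63 in the only WS replicate that was not marked as an outlier, a difference of 2.43 ± 0.49 (adjusted p = 0.045). With 1 sample in a group, here and for other genes with a single value, the fit takes the spread from the other groups and the lone sample is assumed to vary like them. The WS values lay above all WT values in both sets of cultures.

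Mmp28 (epilysin), a secreted MMP found in skin and other tissues, was also higher in WS, with log2 ratios of 1.31 and 2.67 on the direct arrays (mean 1.99 ± 0.30, adjusted p = 0.0072). Its levels in the Cy3 channels were 4.28 and 4.16 in WT and 5.88 and 6.37 in WS (difference 1.91 ± 0.39, adjusted p = 0.047). After H2O2 they were 4.47 and 4.51 in WT and 6.84 and 7.06 in WS (adjusted p = 0.022). The treated WT channels were not well above background, so that Mmp28 was at least 4.26-fold higher in treated WS cells. The genotypes did not overlap in either channel, but a second probe of Mmp28 gave a log2 difference of 0.18 ± 0.19 on the direct arrays (adjusted p = 0.52).

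The gelatinase Mmp2 and the membrane-type protease Mmp14, which activates the proform of Mmp2 together with Timp2, were higher in WS as well. Mmp14 had log2 ratios of 0.89 and 1.04 (mean 0.97 ± 0.16, adjusted p = 0.0091), and 0.36 ± 0.40 within Cy3 (adjusted p = 0.79). A second Mmp14 probe had -1.55 and 0.71 on these arrays, so its replicates were on opposite sides of 0. Mmp2 had a value on 1 direct array only (1.43, adjusted p = 0.039 with the spread taken from the other comparisons), and with outlier-marked spots kept it had 1.49 and 1.85. Mmp17, another membrane-type MMP, passed on the direct arrays (0.41 and 1.06, adjusted p = 0.041) with a difference of -0.66 within Cy3, and its second probe had -0.24 and 0.55 on the direct arrays (adjusted p = 0.64). The gelatinase Mmp9 had -0.09 and -0.10, and none of the 3 collagenases (Mmp1a, Mmp8 and Mmp13) passed the threshold.

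Mmp3 (stromelysin-1), which cuts proteoglycans and activates other MMPs, was lower in WS. In the Cy3 channels its level was 6.47 and 7.58 in WT and 4.87 and 4.17 in WS, a difference of -2.51 ± 0.45 (adjusted p = 0.024). The direct arrays had 1 usable spot with a log2 ratio of -1.46, which did not pass the threshold (adjusted p = 0.11), and with outlier-marked spots kept it had -1.46 and -2.40 and passed (adjusted p = 0.014). The outlier-marked spot of direct replicate 4 was well above background in neither channel, so the -2.40 rests on signals near background. In the WS Cy3 channel of the treatment arrays Mmp3 was well above background on 1 of 2 arrays. Of its neighbours in the cluster none passed on the direct arrays or within Cy3. Mmp10, with the same TGAGTCA letters in its promoter, had direct log2 ratios of 0.42 and -0.60, and Mmp13, with TGACTCA, had -0.24 and -0.58.

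**Figure D1:**
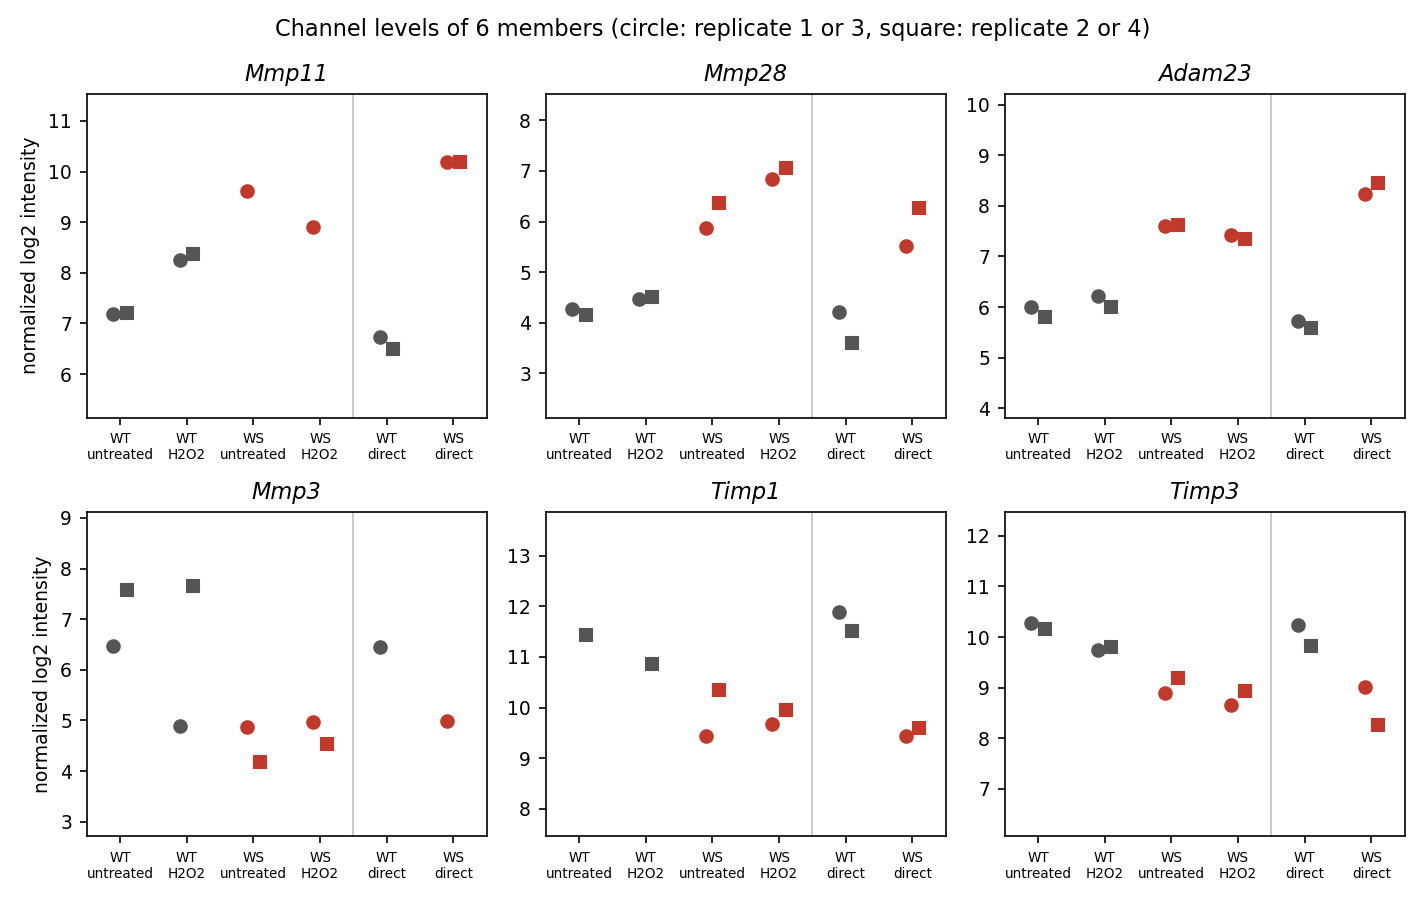
Normalized log2 intensity (y axis) of 6 genes in each channel, with WT in grey and WS in red; the first 4 positions are the treatment arrays (untreated in Cy3, H2O2 in Cy5) and the last 2 the direct arrays. Mmp11 lies at 7.18 and 7.21 in untreated WT and at 10.19 in both direct WS channels, and missing points are spots marked as outliers.

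Among the inhibitors, Timp1 and Timp3 were lower in WS and Timp2 and Timp4 did not pass. Timp1, a secreted inhibitor of most MMPs, had log2 ratios of -2.44 and -1.91 on the direct arrays, or 4.51-fold lower in WS (mean -2.17 ± 0.23, adjusted p = 0.0039). All 3 probes of Timp1 were lower, and the other 2 had -1.57 ± 0.18 (adjusted p = 0.0031) and -2.37 ± 0.21 (adjusted p = 0.0044). Within Cy3 the first of these other probes had levels of 11.30 and 11.53 in WT and 8.81 and 9.38 in WS (difference -2.32 ± 0.40, adjusted p = 0.017), and the representative probe had -1.54 ± 0.53 (adjusted p = 0.33).

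Timp3, which is bound to the matrix and also inhibits ADAM17 and several ADAMTS proteases, had direct log2 ratios of -1.23 and -1.56 (mean -1.39 ± 0.16, adjusted p = 0.0033). Its Cy3 levels were 10.27 and 10.16 in WT and 8.89 and 9.20 in WS, which did not overlap, although the difference of -1.17 ± 0.39 did not pass (adjusted p = 0.30). Cy5 was below Cy3 for Timp3 on all 6 arrays, by 0.22 to 1.56. Timp2 had direct log2 ratios of -0.26 and 0.01, with no WT value on the treatment arrays because its spot was marked as an outlier on both. Timp4 had -0.87 and -0.15 (adjusted p = 0.16).

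Among the ADAMs, Adam23, a protein without protease activity that acts in cell adhesion in the nervous system, was 6.47-fold higher in WS (log2 ratios 2.51 and 2.88, mean 2.69 ± 0.16, adjusted p = 0.00055). Its Cy3 levels were 6.0 and 5.81 in WT and 7.60 and 7.61 in WS, a difference of 1.70 ± 0.38 that did not pass (adjusted p = 0.077). Adam19, a protease that sheds neuregulin, was also higher (1.34 and 1.44, adjusted p = 0.0026), with 1.34 ± 0.42 within Cy3 (adjusted p = 0.25). A second Adam19 probe passed in the same direction (1.06 ± 0.24, adjusted p = 0.026) and the third did not (-0.36 ± 0.19). Adam1b and Adam4, which are known from the testis, passed as higher, but the other probes of Adam1b had 0.12 on 1 direct array (adjusted p = 0.77) and -0.29 and -0.18 (adjusted p = 0.36). Adam4 was well above background on the direct arrays in 1 channel only, Cy3 of replicate 3, so no fold is given for it.

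Adam10, a sheddase that cuts Notch receptors and cadherins, was lower in WS on the direct arrays (log2 ratios -2.20 and -2.44, mean -2.32 ± 0.23, adjusted p = 0.0023). Its WS spot was well above background on 1 of the 2 direct arrays, replicate 3, so the ratio of replicate 4 rests on a signal near background. The second probe of Adam10 was lower too (-0.90 ± 0.23, adjusted p = 0.044). Within Cy3 the levels were 7.19 and 7.93 in WT and 6.1 and 6.30 in WS, without overlap (difference -1.36 ± 0.41, adjusted p = 0.23). Adam17, the sheddase of tumor necrosis factor, had direct log2 ratios of -0.31 and 0.10 (adjusted p = 0.74).

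Adam12, a protease of mesenchymal cells, had -1.67 and -2.17 (adjusted p = 0.0018) and -1.31 ± 0.38 within Cy3 (adjusted p = 0.22), whereas its second probe had -0.76 and 0.14. The WS spot of the representative Adam12 probe was not well above background on direct replicate 4, so the -2.17 rests on a signal near background. Adam33 had -1.99 and -1.96 (adjusted p = 0.0010). Since its Cy5 spots were not well above background, Adam33 was at least 1.93-fold lower in WS, and a second probe had 0.21 and 0.09. Adam18 (-1.71 and -0.79) and Adam1a (-1.73 and -0.56) passed as lower.

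Of the ADAMTS proteases, Adamts1 and Adamts5, which cut aggrecan and versican, were higher in WS. Adamts1 had log2 ratios of 1.13 and 1.84 (mean 1.49 ± 0.20, adjusted p = 0.0053). Its Cy3 levels were 7.40 and 7.27 in WT and 8.56 and 8.58 in WS, without overlap, although the difference of 1.24 ± 0.38 did not pass (adjusted p = 0.25). A second Adamts1 probe had -0.73 and 0.59 (adjusted p = 0.90), so its replicates disagreed. Adamts5 had 0.54 and 0.61 (adjusted p = 0.036) and -0.13 ± 0.44 within Cy3, and its second probe had -0.04 and -0.11 on the direct arrays (adjusted p = 0.87). Adamts6 (-1.42 and -1.27, adjusted p = 0.0047) and Adamts20 (-1.39 and -1.32, adjusted p = 0.0056) were lower, with -0.36 ± 0.41 and 0.16 ± 0.54 within Cy3. The WS spot of Adamts6 was not well above background on direct replicate 4, so its -1.27 rests on a signal near background. Both other probes of Adamts20 had direct ratios on opposite sides of 0 (0.35 and -0.85 for one, 0.18 and -1.55 for the other). Adamts12 showed no difference with its representative probe (-0.05 and -0.02), but another of its probes had 2.57 and 2.46 (adjusted p = 0.00063) and 1.86 ± 0.41 within Cy3 (adjusted p = 0.067). The third Adamts12 probe had 0.27 and -0.28 on the direct arrays (adjusted p = 0.99).

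**Figure D2:**
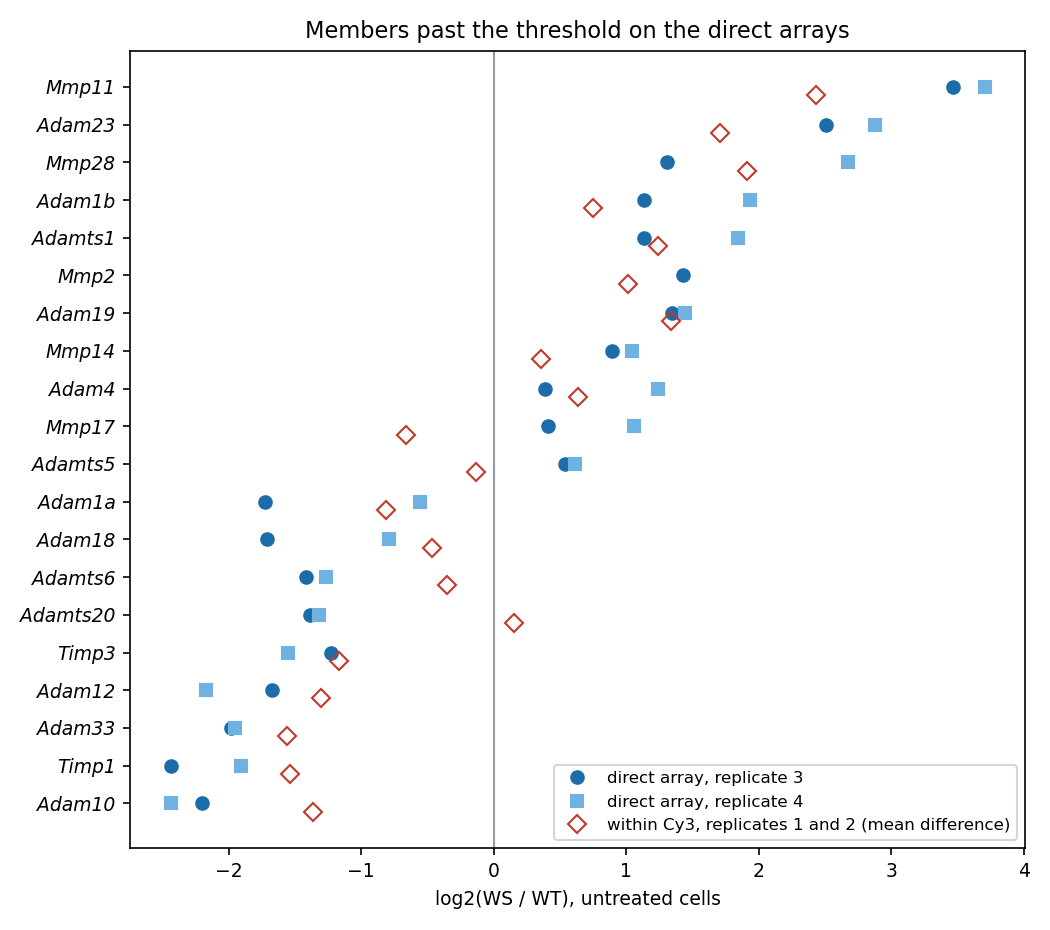
log2(WS/WT) in untreated cells (x axis) for the 20 genes that passed the threshold on the direct arrays: circles and squares are replicates 3 and 4, and open diamonds the mean difference within Cy3 of the treatment arrays (replicates 1 and 2). The diamonds lie on the same side of 0 for 17 of the 20 genes, the others being Mmp17, Adamts5 and Adamts20.

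The Cy3 comparison used other cultures than the direct arrays and a single dye. Within Cy3, 3 of 67 genes passed the threshold, Mmp11 and Mmp28 as higher and Mmp3 as lower in WS, while 0.554% of all gene names did (0.258% higher and 0.296% lower). None of the 3 passed when either WS array was left out or with normexp background correction, and 15 passed without the array of WT replicate 1. Shares of all gene names under these other settings are not given here. Among the treated cells in Cy5 1 of 67 passed (Mmp28), against 0.413% of all gene names. Of the 20 genes called on the direct arrays 17 had the same sign within Cy3, which is close to the 89.5% of all gene names called there. When only called genes with a log2 difference above 1 were counted, the sign was the same for 15 of 16, with Adamts20 as the exception. For this cut the share of all gene names is not given, so the count does not set these genes apart. Over 67 genes the Pearson correlation of both differences was 0.79, as a description across genes, which share their arrays and are not independent replicates. The signs and this correlation depend on the direction taken for the direct arrays, which was opposite to the labels. That direction had been set against these same Cy3 values, so the agreement is no separate test. Of the 66 genes with a ratio on 5 or 6 arrays, 17 (25.8%) had a ratio of the same sign on every measured array, near the 21.5% of all gene names. Of the 19 called genes among the 66, 8 did so (Adam12, Adam18, Adam1a, Adam1b, Adam4, Adamts20, Mmp28 and Timp3). The part of dye preference in the direct values of these 8 was not tested with exchanged dyes.

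**Figure D3:**
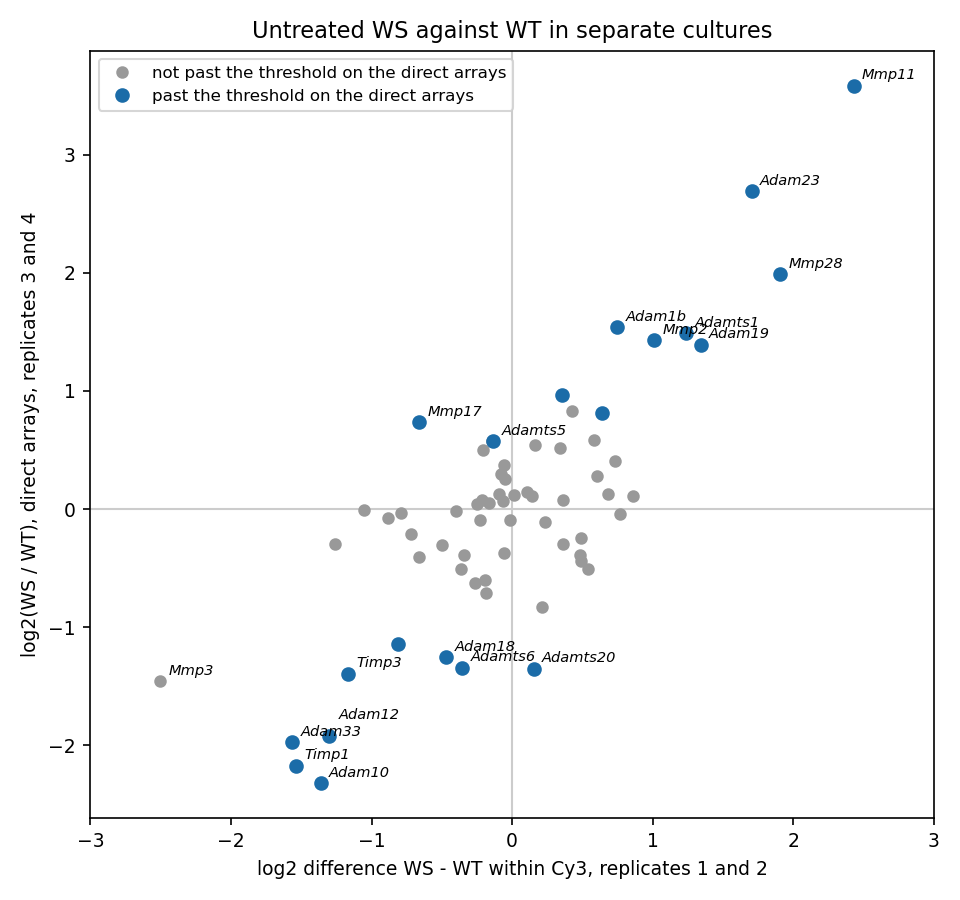
Difference between untreated WS and WT cells for 67 genes, within Cy3 of the treatment arrays (x axis, log2) and on the direct arrays (y axis, log2); blue points passed the threshold on the direct arrays. Mmp11 lies at 2.43 and 3.58 and Timp1 at -1.54 and -2.17.

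The second question was the response to H2O2. In WT cells none of 67 genes passed the threshold (limma), while 0.261% of all gene names did, and 19 genes had an unadjusted p under 0.05 (6 higher and 13 lower), against 20.1% of all gene names (10.7% higher and 9.41% lower). The median log2 ratio of the 67 genes was -0.16, and 0.002 over all gene names. Beside this, the 9 fibroblast markers with a value had a median of -1.04 in treated WT cells. In WS cells none of 68 genes passed, as for all gene names (0%), and 13 had an unadjusted p under 0.05 (6 higher and 7 lower), against 12.5% of all (6.02% higher and 6.49% lower). The median was 0.01, and that of the fibroblast markers -0.15. The 0 calls depended on the processing. Fits with normexp background correction, with outlier-marked spots kept or without either direct array called 10, 6 and 19 genes in WT. The fits without either direct array called 14 in WS. The shares of all gene names under these fits are not given here, so the counts do not set the genes apart.

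In WT cells Mmp11 had log2(H2O2/untreated) ratios of 1.08 and 1.15 (mean 1.12 ± 0.17, adjusted p = 0.054). In WS cells its only measured ratio was -0.73, and with outlier-marked spots kept the WS ratios were -0.72 and -0.52. The WS response, from 1 array, minus the WT response was -1.85 ± 0.29, which did not pass over all probes (adjusted p = 0.47) and passed when the treatment arrays were fitted alone (adjusted p = 0.014). The treated levels were 8.26 and 8.37 in WT and 8.90 in WS, a difference of 0.58 ± 0.50 within Cy5 (adjusted p = 0.77).

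Mmp12 (macrophage elastase) had ratios of 1.33 and 0.99 in WT (adjusted p = 0.052) and 0.22 and 0.46 in WS (adjusted p = 0.47). It was well above background in the treated WT channels only, with a measured ratio of 2.24-fold over the untreated ones. The macrophage markers had a median of 0.06 in the same comparison, and 0 of 8 passed. Adam4 had 1.26 and 1.24 in WT (adjusted p = 0.056), a measured 2.37-fold over untreated cells, and 0.49 and 0.51 in WS. Cy5 was above Cy3 for Mmp12 and Adam4 on all 6 arrays, direct arrays included, so a response and a dye preference cannot be told apart.

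The representative probe of Adamts5 was lower after H2O2 on every treatment array. It had -0.94 and -0.93 in WT (adjusted p = 0.052) and -0.53 and -0.54 in WS (adjusted p = 0.28). Its replicates differed by 0.01 in both genotypes, and the WS response minus the WT response was 0.40 ± 0.21 (adjusted p = 0.85). The second Adamts5 probe had -1.10 and -0.45 in WT and 0.19 and -0.79 in WS, so its WS replicates disagreed. Adamts1 had -0.54 and -0.40 in WT and -0.56 and -0.43 in WS (adjusted p = 0.25 and 0.40). Adamts2, which removes the amino-terminal propeptide of procollagens, had -1.06 on the single WT array with a value and -0.64 and -1.24 in WS. Its other probes were measured on both WT arrays. One had -0.05 and -0.05 in WT and -0.22 and -0.22 in WS, the other 0.26 and 0.09 in WT and -0.37 and -0.08 in WS. Adamts18 had -0.83 and -1.26 in WT (adjusted p = 0.056) and -0.45 and -0.04 in WS. Its Cy5 signal was below Cy3 on all 6 arrays, so a response and a dye preference cannot be told apart. A second Adamts18 probe had 0.20 and -0.14 in WT and 0.20 and -0.14 in WS. Adamts7, which cuts cartilage oligomeric matrix protein, had -0.28 and -0.03 in WT and 0.82 and 1.04 in WS (adjusted p = 0.23).

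Among the ADAMs, Adam1a had -1.72 and -1.26 in WT (adjusted p = 0.075) and -1.24 in WS, Adam18 had -1.23 in WT and -0.42 and -0.55 in WS, and Adam1b had 1.3 and 0.94 in WT and 0.31 and 1.11 in WS. Adam12 had -0.81 and -0.95 in WT (adjusted p = 0.066) and -0.39 and -0.43 in WS, whereas its second probe had the opposite sign on every treatment array, with 0.93 and 0.19 in WT and 0.26 and 0.33 in WS. The representative probes of these 4 genes also kept 1 sign on every measured array, so a response and a dye preference cannot be told apart for them. Adam10 had -0.79 and 0.14 in WT, so its replicates disagreed, and 0.06 and 0.10 in WS. Adam17 had -0.36 on the single WT array with a value and 0.09 and 0.55 in WS. Adam9, a widely expressed ADAM, had 0.30 in WT and 0.90 and 0.65 in WS (adjusted p = 0.28). One further probe, the second of Adam28, passed in WT (-1.50 and -1.79, adjusted p = 0.040), but its Cy5 signal was below Cy3 on all 6 arrays, by 1.15 to 1.79, the direct arrays included.

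None of the inhibitors and main matrix-degrading MMPs with a value passed in either genotype, and Timp2 had no value in WT. Timp1 had -0.57 on the only WT array with a value and 0.23 and -0.40 in WS, and a second Timp1 probe, measured on both WT arrays, had -0.01 and -0.02 in WT and 0.25 and 0.01 in WS. Timp4 had -0.95 on 1 WT array (adjusted p = 0.17) and -0.20 and -0.39 in WS. Timp3 had -0.52 and -0.36 in WT and -0.22 and -0.26 in WS, and Timp2 had -0.29 and 0.33 in WS. Mmp14 had -0.05 and 0.21 in WT and 0.16 and 0.27 in WS with its representative probe. The second Mmp14 probe was lower after H2O2 in WS, with -1.52 and -1.43 (limma, adjusted p = 0.35). Its WT spots were marked as outliers, and with such spots kept it had -1.87 and -1.06 in WT. Mmp2 had 1 ratio in each genotype (-0.87 in WT and -0.16 in WS). Mmp3 had -1.58 and 0.09 in WT, where the replicates disagreed, and 0.11 and 0.37 in WS. Mmp16, a membrane-type MMP, had 0.81 and 0.70 in WT (adjusted p = 0.080) and 0.54 and 0.55 in WS, near background. The difference between the responses of both genotypes passed for 0 of 67 genes, as for all gene names (0%), and 7 had an unadjusted p under 0.05 (4 higher and 3 lower), against 5.87% of all (2.94% higher and 2.93% lower).

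**Figure D4:**
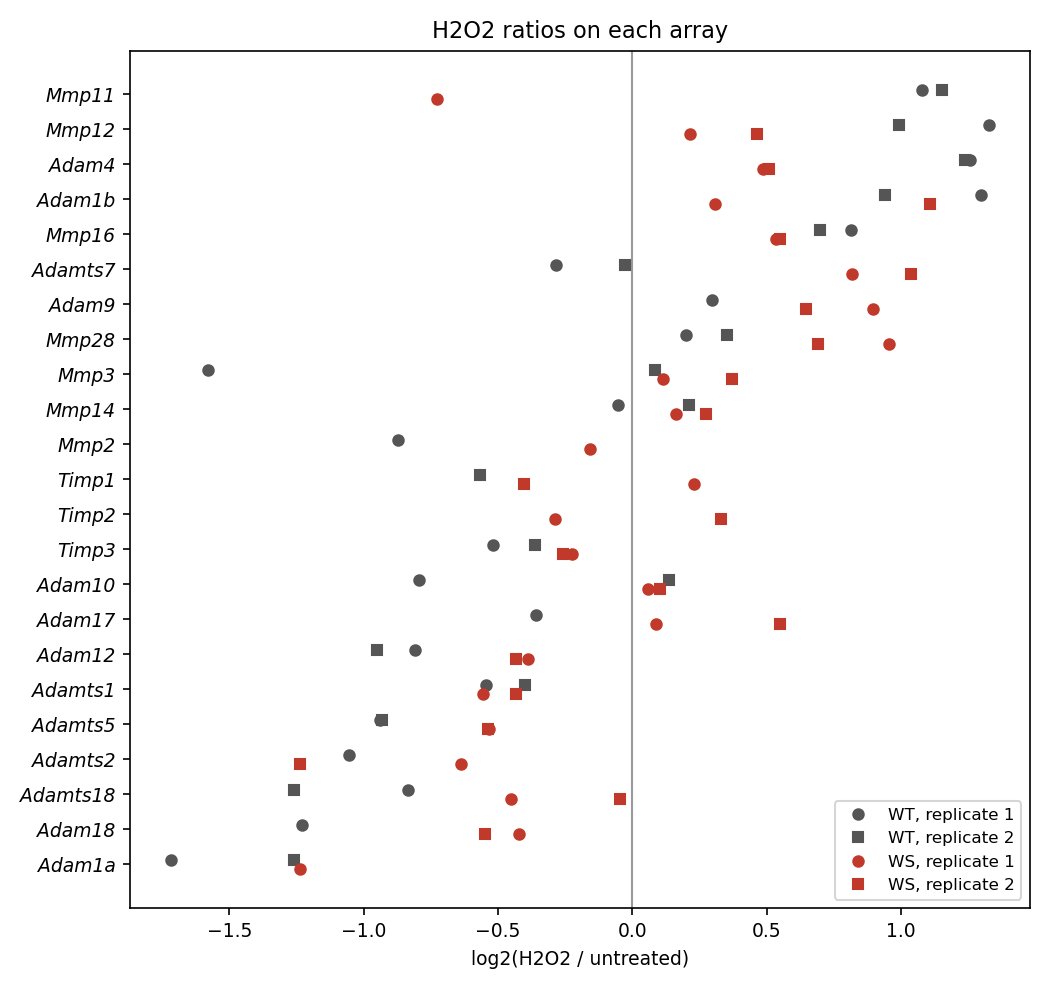
log2(H2O2/untreated) on each treatment array (x axis) for 23 genes named in the text, with WT in grey, WS in red, replicate 1 as circles and replicate 2 as squares. None passed the threshold. All WT points lie on the other side of 0 from all WS points for Mmp11, Adamts7 and Adam17, of which Adamts7 alone has 2 points in each genotype.

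The partners and substrates of these proteases were described from lists of known genes. On the direct arrays 10 of 22 activators and regulators of MMPs passed, 5 in each direction, with a median of 0.08, while 19.2% of all gene names did. Lower in WS were, among others, Tnc (tenascin C, -2.46), Pcsk5 (a proprotein convertase, -2.0), Cd44 (-1.08) and Tfpi2 (-0.81), and higher were Thbs2 (1.26), Sparc (1.2), Plau (urokinase, 0.88), Spock3 (0.83) and Reck (a membrane inhibitor of MMPs, 0.58). Of 28 cell surface proteins known to be shed by ADAMs, 4 were higher and 3 lower, with a median of 0.04, a share near that of all gene names (19.2%, or 23.0% of those above background). Kitl (the Kit ligand, 2.70), Cx3cl1 (2.14), Cxcl16 (1.85) and Tnfrsf1a (0.73) were higher, and Csf1 (-1.81), Sdc1 (-1.0) and Cdh2 (-0.93) lower. Kitl was also higher within Cy3 (2.22, adjusted p = 0.028) and within Cy5 (2.47, adjusted p = 0.048).

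Of 12 matrix proteins known to be cut by ADAMTS proteases, 4 were higher (Col3a1, Fbn1, Col1a1 and Col2a1) and 2 lower (Ltbp1 and Fbn2), with a median of 0.07, against 19.2% of all gene names that passed. Ltbp1, which stores latent TGF-beta in the matrix, had a log2 difference of -3.09 on the direct arrays (adjusted p = 0.0016) and -3.25 within Cy3 (adjusted p = 0.0083). Adamtsl3, which resembles the ADAMTS proteases but has no protease domain, had -2.10 (adjusted p = 0.0036) and -2.64 within Cy3 (adjusted p = 0.031). After H2O2 1 gene of these lists passed, Col5a1 in WT cells (-1.36, adjusted p = 0.040), and none passed in WS cells. Of the partners of ADAM10 and ADAM17, 1 of 9 was on the array, and it did not pass in any comparison.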

How the data were processed

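Expression was measured on 6 Agilent whole mouse genome arrays of 60-mer probes with 2 colours. The authors deposited the output of Feature Extraction (version A.7.5.1 per the file headers) with mean and background intensities, log10 ratios and flags, and a series table of log2 ratios, which was used as an alternative and holds limma output per the labels. The number of arrays limits the precision.

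From the deposited intensities the local background median was subtracted from the mean signal, and log ratios were fitted by loess per array with control and outlier-marked spots at weight 0. Outlier-marked spots were removed and saturated spots kept. Spots of one probe were averaged. limma 3.58.1 (R 4.3.3) was fitted over all 6 arrays with 1 coefficient per comparison (3 residual degrees of freedom), which was tested two-sided with Benjamini-Hochberg adjustment over all non-control probes. For comparisons within a dye, channels were scaled by Aquantile and the 4 treatment arrays fitted. These comparisons share channels with the H2O2 ratios. The code was tested on simulated data.

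"At least" folds set the mean of the brighter group against the higher of the dim probe and the lowest signal well above background on each array. The treatment arrays were extracted from images on 1 of 3 days and each direct array on a day of its own, so that day and kind of comparison cannot be told apart. Replicate numbers did not pair the treatment arrays. The labels call the samples biological replicates. Statistics are given in full for the called genes, the 5 with the largest change above background in each comparison, and Timp1, Timp2, Timp3, Mmp2, Mmp3, Mmp14, Adam10, Adam17, Adamts1 and Adamts5. The genes and lists were chosen with earlier results of these data known. From tables of the study's own comparisons the direction of the direct arrays was taken, and no value. Probe sequences were not used here. A gene of the list of MMP regulators is not reported here by name.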

Additional observations from a re-analysis of the deposited data

Results flagged for a closer look

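Among genes above background in both genotypes and measured on all 4 treatment arrays, Adam23, Adamts7 and Mmp21 had responses to H2O2 of opposite direction on every array of WT and WS cells. The WS response minus the WT response, on the log2 scale, was -0.42 for Adam23 (0.22 and 0.19 in WT, -0.17 and -0.27 in WS), 1.08 for Adamts7 (-0.28 and -0.03 in WT, 0.82 and 1.04 in WS) and 0.42 for Mmp21 (-0.09 and -0.23 in WT, 0.17 and 0.35 in WS). In the limma fit of this difference none of the 3 passed, with adjusted p of 0.86 for Adam23, 0.66 for Adamts7 and 0.86 for Mmp21. With 2 arrays per genotype the opposite signs by themselves were not tested. The share of all gene names with such signs is not given here, so the pattern does not set these genes apart. Mmp11, Adam17 and Mmp19, whose measured ratios also had opposite signs, are not counted because each lacks a value on 1 array. Adam3, Adam24, Adam33, Adamts15 and Mmp7 also had opposite signs on every array but were not above background in both genotypes, and the largest of their differences was 0.77 for Adam33 (adjusted p = 0.69).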

How the results depend on the processing

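On the direct arrays Mmp11, Adam23, Timp1 and Adam10 kept their direction and their call under every alternative that kept the adjusted p threshold of 0.05 and gave a value, and Timp3 kept its direction but did not pass with median centring (-0.94, adjusted p = 0.073). The H2O2 counts rested on the processing. In WT the count of called genes rose from 0 to 10 with normexp, 6 with outlier-marked spots kept, 5 with only probes above background, 4 with Feature Extraction log ratios, 6 with the series table, 6 with the fit of 12 channels, 19 with each comparison on its own arrays and 1 with any probe of the gene; without 1 array it ranged from 0 to 19, with 19 without either direct array. In WS it rose from 0 to 6 with median centring and 13 on its own arrays; without 1 array it ranged from 0 to 14, with 14 without either direct array. On the direct arrays the 20 became 13 on their own arrays (all 13 among the 20) and 7 at the study's thresholds; without 1 array they ranged from 14 to 31, the 31 without direct replicate 3, of which 18 were among the 20. For the difference of the responses 0 became 2 on its own arrays (Adamts7 and Mmp11) and 1 with extraction day as a random block (Mmp11); without 1 array it ranged from 0 to 2. Within Cy3 the 3 became 0 with normexp and 0 at the study's thresholds; without 1 array they ranged from 0, without either WS array, to 15, without WT replicate 1, and were 5 without WT replicate 2. Within Cy5 the 1 became 0 with normexp, 0 at the study's thresholds and 2 with any probe; without 1 array it ranged from 0, without either WS array, to 6, without WT replicate 1. The study's thresholds with each comparison on its own arrays, chosen after seeing the data, gave 4 in WT, 1 in WS and 2 on the direct arrays (Adam23 and Mmp11). The shares of all gene names called under these alternatives are not given here, and the causes were not tested.

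Replicate numbers did not pair the samples (correlation of deviations -0.046 over 29913 probes). With the replicate number as a block 0 genes passed in WT, 0 in WS, 14 on the direct arrays and 0 for the difference.

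Among the other values 31 changed sign, 941 kept sign and side of the threshold, 93 passed and 32 no longer passed. Of those that changed sign, none had passed. With the replicate block the values that changed sign were 0.064 for Timp1 in WT, -0.014 for Mmp14 in WT, 0.23 for Timp1 in WS, -0.29 for Timp2 in WS, -0.24 for Mmp3 in WS and -0.16 for Adam10 in WS. With median centring the values that changed sign were 0.13 for Timp3 in WT, 0.051 for Adam10 in WT, 0.024 for Adam1a in WS, 0.81 for Timp1 in WS, 0.58 for Timp3 in WS, 1.15 for Mmp2 in WS, -0.11 for Mmp3 in WS, 0.27 for Adamts1 in WS, 0.43 for Timp2 on the direct arrays and 0.41 for Adamts1 in the response difference. With outlier-marked spots kept the values that changed sign were 0.32 for Adamts5 within Cy3. Without 1 array the values that changed sign ranged from -1.58 to 0.086 for Mmp3 in WT, from -0.051 to 0.21 for Mmp14 in WT, from -0.79 to 0.14 for Adam10 in WT, from -0.40 to 0.23 for Timp1 in WS, from -0.29 to 0.33 for Timp2 in WS, from -0.26 to 0.011 for Timp2 on the direct arrays, from -0.31 to 0.097 for Adam17 on the direct arrays, from -0.055 to 0.87 for Adam10 in the response difference, from -0.095 to 0.048 for Adamts1 in the response difference, from -0.55 to 0.28 for Adamts5 within Cy3 and from -0.15 to 0.68 for Adamts5 within Cy5. Genes near background have values limited by signal.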
